A study of Mus musculus with 4 samples.

Results

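The 10 core circadian clock genes Clock, Arntl, Npas2, Per1, Per2, Per3, Cry1, Cry2, Nr1d1 and Nr1d2 were examined in fetal brown adipose tissue (BAT). The question was whether the activators and the repressors of the clock moved apart between groups, as a difference in collection time could produce. The 10 genes were chosen by name as the activators, repressors and nuclear receptors of the clock's core loops. All 10 of the 10 were found by symbol among the 22298 genes listed, and all 10 were among the 12888 genes with enough counts to be tested. BAT was taken on the final gestational day from C57BL/6 fetuses of dams that drank tap water (control, n = 2 libraries) or 20% (w/v) fructose water (fructose, n = 2 libraries) during pregnancy. The time of day of collection and the number of fetuses or litters in each library are not given in the sources used here. The p-values therefore measure only the spread between these libraries, which may be technical.

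All 4 libraries are labelled male, but the summed counts of 4 Y-linked genes (Uty, Kdm5d, Ddx3y and Eif2s3y) were 422 and 390 in control, against 0 in both libraries labelled fructose, which goes against the male label of the latter. Since this holds for both fructose libraries, the sex of the tissue and the diet cannot be told apart in any value below. Counts on genes totalled between 18542897 and 23645147 per library. Levels are given in CPM (counts relative to the total of a library, adjusted by its TMM factor from edgeR). The 8 brown adipocyte markers, summed, were at 14030 to 17160 CPM in all libraries, a sum held mostly by Ucp1. At an adjusted p under 0.05 in edgeR, 2 of the 8 were called higher in fructose (Elovl3 and Ebf2), beside 15.5% of all genes tested. Another 2 of the 8 were called lower (Cox8b and Cox7a1), beside 10.7% of all genes. With the length and GC trends removed, as described below, 1 of the 8 (Elovl3) was called higher, beside 3.91% of all genes. None was then called lower, beside 4.21% of all genes. Cox8b (0.041) and Cox7a1 (0.074) then had positive log2 fold changes, and Ebf2 was at 0.25 (edgeR adjusted p = 0.077). The 6 general adipocyte markers were all lower in both fructose libraries than in both controls (median log2 fold change -0.21), beside 31.6% of all genes. Of these, 3 of 6 were called lower, beside 10.7% of all genes. With the length and GC trends removed, as described below, 1 of 6 (Fabp4) was called lower, beside 4.21% of all genes. Pparg (0.016) and Plin1 (0.070) then had positive log2 fold changes. Mitochondrially encoded genes held 5.89% and 6.49% of control counts, against 10.8% and 11.2% of fructose counts. Skeletal muscle markers summed to 251 and 342 CPM in control and 803 and 591 CPM in fructose. Of these, 10 of 10 were called higher in fructose, beside 15.5% of all genes. With both trends removed 9 of 10 were called higher, beside 3.91% of all genes. Erythroid markers summed to 14470 and 11630 CPM in control and 8840 and 9118 CPM in fructose, while liver markers stayed at or under 0.133 CPM. The part of these differences in the results on clock genes was not tested, and in bulk tissue fewer cells of a type and less RNA per cell cannot be told apart.

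In the clock, CLOCK or its relative NPAS2 pairs with BMAL1, the product of Arntl, and the pair binds E-boxes and activates transcription of the Per, Cry and Nr1d genes. PER and CRY proteins then enter the nucleus and inhibit the pair, and the nuclear receptors REV-ERBα and REV-ERBβ, encoded by Nr1d1 and Nr1d2, repress Arntl in a second loop in which ROR receptors are activators. In adult peripheral tissues, BAT included, Arntl and Npas2 peak at about the opposite time of day from Nr1d1, Per3 and the output gene Dbp, whereas Clock itself cycles weakly. If fetal BAT cycles in the same way, samples taken at different times of day could differ in these genes. Arntl and Npas2 would then move in one direction, and Nr1d1, Nr1d2, Per3 and Dbp in the other. Whether fetal BAT cycles in this way was not tested, and different times of day can also share the same levels.

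RefSeq (GRCm38.p6) gave a promoter for 9 of the 10 genes, Per2 being the one not found there. The following 4 are shown because these genes had the 4 largest differences between the groups, whether called or not. Each sequence reads 5′ to 3′ on the strand of the gene and ends at the start of transcription, or at the last base upstream of an annotated transcript. It lies on the minus strand, at chr5:76304793-76305042 for Clock, chr10:85185065-85185304 for Cry1, chr11:98775378-98775627 for Nr1d1 and chr14:18239128-18239356 for Nr1d2. Capitals mark matches to the E-box CACGTG and to the related E′-box CACGTT, which on the other strand reads AACGTG.
Clock: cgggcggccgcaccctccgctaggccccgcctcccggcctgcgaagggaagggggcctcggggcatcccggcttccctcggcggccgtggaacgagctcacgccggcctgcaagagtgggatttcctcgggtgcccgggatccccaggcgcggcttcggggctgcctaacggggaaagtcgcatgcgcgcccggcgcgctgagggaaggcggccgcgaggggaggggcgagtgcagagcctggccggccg
Cry1: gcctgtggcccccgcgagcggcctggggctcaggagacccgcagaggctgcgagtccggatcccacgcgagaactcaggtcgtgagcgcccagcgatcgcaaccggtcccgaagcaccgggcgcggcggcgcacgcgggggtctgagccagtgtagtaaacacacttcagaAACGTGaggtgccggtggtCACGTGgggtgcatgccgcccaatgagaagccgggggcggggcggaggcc
Nr1d1: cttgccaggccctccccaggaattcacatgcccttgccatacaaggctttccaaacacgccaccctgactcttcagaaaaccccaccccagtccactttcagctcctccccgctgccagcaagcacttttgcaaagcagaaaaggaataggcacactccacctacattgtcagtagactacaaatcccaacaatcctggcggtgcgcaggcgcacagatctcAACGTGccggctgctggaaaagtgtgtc
Nr1d2: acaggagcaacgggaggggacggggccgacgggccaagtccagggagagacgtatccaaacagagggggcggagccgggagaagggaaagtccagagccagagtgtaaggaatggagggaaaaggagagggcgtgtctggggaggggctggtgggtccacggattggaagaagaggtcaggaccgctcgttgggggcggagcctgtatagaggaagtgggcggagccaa

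The 250 bases upstream of the start were searched on both strands, and no site can match the E-box and the E′-box at once. The E-box was found in 6.02% and the E′-box in 3.85% of 32851 mouse promoters. Cry1 held both, Per1 held an E-box, and Cry2 and Nr1d1 each held an E′-box. The D-box, searched as TTATGTAA or TTACGTAA and found in 0.931% of promoters, was present in Per3 at 2 places. The ROR and REV-ERB response element (0.177% of promoters) and the cAMP response element TGACGTCA (1.55% of promoters) were found in none of the 9 genes. Clock, Nr1d2, Arntl and Npas2 matched none of these letters. Such matches describe the sequence of the window and do not show that a factor binds there.

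All 10 genes were detected in every library, with between 68 and 2598 counts. Per transcript length, Per1 had the highest level of the 10 in the control libraries, at a mean of 22.8 RPKM (CPM per kilobase of the longest transcript), followed by Cry2 (10.8 RPKM), Nr1d1 (10.1 RPKM) and Cry1. The order among Cry2, Nr1d1 and Cry1 was within the spread of the control libraries, in which Nr1d1 stood at 11.7 and 8.42 RPKM and Cry1 at 9.26 and 10.8 RPKM. Per3 came next at 5.45 RPKM, then Arntl at 3.16 RPKM, Per2 at 2.68 RPKM and Npas2 at 2.26 RPKM. The lowest levels were those of Nr1d2 (0.880 RPKM) and Clock (0.672 RPKM), which differed from each other by more than the spread of the control libraries. In fructose, Per1 was again the highest at 21.5 RPKM and Clock again the lowest at 1.27 RPKM. Nr1d2 was at 2.17 RPKM there (1.76 and 2.58 RPKM), and its fructose libraries overlapped with those of Npas2 (mean 2.15 RPKM) and of Per2 (mean 2.54 RPKM), while both values of Npas2 lay below both of Per2.

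**Figure D1:**
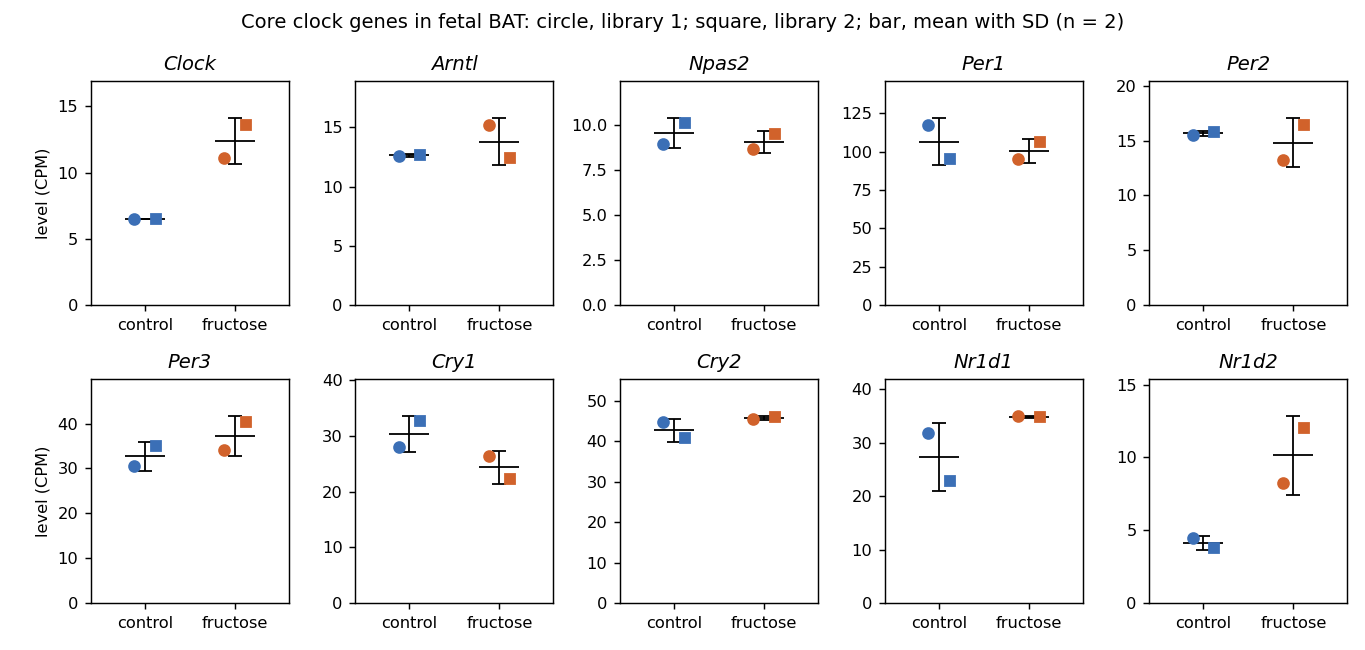
Level of each of the 10 core clock genes in CPM, 1 panel per gene with its own linear axis from 0, with a circle for library 1, a square for library 2, a bar at the mean and whiskers for the SD (n = 2). The fructose points of Clock and Nr1d2 lie well above their control points, while those of Arntl, Npas2, Per1, Per2 and Per3 overlap with them.

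Clock and Nr1d2 were the only members of the 10 that differed between the groups at an adjusted p under 0.05 in edgeR's quasi-likelihood test, and both were higher in fructose. That is 2 of 10 genes, or 20%, beside 26.2% of all 12888 genes tested (15.5% higher and 10.7% lower), so the share of clock genes called was near that of all genes. With the thresholds the study names, an unadjusted p under 0.05 and a fold change above 1.3, the same 2 genes passed, beside 23.8% of all genes (17.6% higher and 6.18% lower). Groups did not overlap for 5 of the 10, beside 65.1% of all genes (33.4% higher and 31.6% lower). These were Clock, Cry2, Nr1d1 and Nr1d2, higher in fructose, and Cry1, lower in fructose. The median log2 fold change of the 10 was 0.11, beside 0.0025 over all genes tested.

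Of the activators, Clock (chr5:76209868-76304792, minus strand, GRCm38) encodes the DNA-binding partner of BMAL1. Its counts were 124 and 118 in control, against 252 and 333 in fructose, that is 6.54 and 6.54 CPM against 11.1 and 13.6 CPM. Both fructose libraries lay above both control libraries, by more than they differed from each other. The difference was 1.89-fold, or 0.92 on the log2 scale (SE 0.16, 95% confidence interval 0.56 to 1.28, adjusted p = 0.0026 in edgeR's quasi-likelihood test), and DESeq2 gave 0.90 (adjusted p = 0.0027). This call was lost when the transcript length or the GC content was accounted for, as described below.

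Arntl (chr7:113207465-113314126, plus strand), without whose product BMAL1 rhythms are lost, stood at 12.6 and 12.7 CPM in control and 15.2 and 12.4 CPM in fructose. The first fructose library was above the other 3, which were alike, so the groups overlapped. The log2 fold change was 0.12 (SE 0.15, 95% confidence interval -0.20 to 0.45, edgeR adjusted p = 0.57). Npas2 (chr1:39193731-39363236, plus strand), which can stand in for Clock, stood at 8.97 and 10.2 CPM in control and 8.67 and 9.51 CPM in fructose. Its groups overlapped as well, with a log2 fold change of -0.07 (SE 0.16, 95% confidence interval -0.41 to 0.27, edgeR adjusted p = 0.77). The upper limits of these intervals, 0.45 for Arntl and 0.27 for Npas2, lie below the lower limit of 0.56 for Clock in the counts as deposited. With the length and GC trends removed, as described below, the interval of Clock (-0.19 to 0.48) overlapped with those of Arntl (-0.26 to 0.37) and Npas2 (-0.36 to 0.28).

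The Per genes encode the repressors whose nuclear entry closes the loop, and Per1 and Per2 also respond acutely to light, feeding and glucocorticoid signals. Per1 (chr11:69095217-69109960, plus strand) stood at 117 and 95.4 CPM in control and 94.9 and 106 CPM in fructose. The first control library was the highest of the 4 and the groups overlapped, with a log2 fold change of -0.08 (SE 0.10, 95% confidence interval -0.31 to 0.15, edgeR adjusted p = 0.60). Per2 (chr1:91415982-91459324, minus strand) stood at 15.5 and 15.8 CPM in control and 13.3 and 16.4 CPM in fructose. The fructose libraries lay on either side of the controls, with a log2 fold change of -0.08 (SE 0.14, 95% confidence interval -0.39 to 0.23, edgeR adjusted p = 0.72). Per3 (chr4:151003652-151044665, minus strand), the member least needed for rhythms, stood at 30.5 and 34.9 CPM in control and 34.1 and 40.4 CPM in fructose. One fructose library was above both controls and the other between them, with a log2 fold change of 0.19 (SE 0.11, 95% confidence interval -0.05 to 0.43, edgeR adjusted p = 0.23).

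The Cry genes encode the strongest direct inhibitors of CLOCK and BMAL1. Cry1 (chr10:85131700-85185064, minus strand) stood at 28.02 and 32.6 CPM in control and 26.4 and 22.3 CPM in fructose. Both fructose libraries were below both controls, but by a small margin, with a log2 fold change of -0.32 (SE 0.12, 95% confidence interval -0.58 to -0.06) that missed the threshold (edgeR adjusted p = 0.071, DESeq2 adjusted p = 0.15). Without the first control library the log2 fold change of Cry1 was -0.43 (edgeR adjusted p = 0.0064), and without the first fructose library it was -0.44 (edgeR adjusted p = 0.039), whereas without the second control or the second fructose library it was -0.21 and -0.20, so single libraries decided this call. Cry2 (chr2:92403646-92434043, minus strand) stood at 44.8 and 40.8 CPM in control and 45.5 and 46.1 CPM in fructose. The groups did not overlap, but the lower fructose value was close to the higher control value, with a log2 fold change of 0.10 (SE 0.09, 95% confidence interval -0.10 to 0.30, edgeR adjusted p = 0.45).

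Nr1d2 (chr14:18204054-18239127, minus strand), which encodes REV-ERBβ, had the largest difference of the 10. Its counts were 84 and 68 in control, against 186 and 295 in fructose, that is 4.43 and 3.77 CPM against 8.22 and 12.04 CPM. The lower fructose library was well above both controls, although the fructose libraries also differed from each other. The difference was 2.47-fold, or 1.305 on the log2 scale (SE 0.22, 95% confidence interval 0.83 to 1.78, edgeR adjusted p = 0.0019), and DESeq2 gave 1.29 (adjusted p = 0.00031). Nr1d2 was called higher in 15 of 15 alternative settings, with log2 fold changes from 0.86 to 1.56.

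Nr1d1, which encodes REV-ERBα and is among the genes of highest daily amplitude in adult tissues, stood at 31.9 and 22.9 CPM in control and 35.0 and 34.8 CPM in fructose. The fructose libraries were alike and above both controls, and the gap to the first control library was small beside the difference between the controls. The log2 fold change was 0.35 (SE 0.13, 95% confidence interval 0.05 to 0.64) and missed the threshold (edgeR adjusted p = 0.077, DESeq2 adjusted p = 0.16). Without the first control library it was 0.60 (edgeR adjusted p = 8.6e-05), and without the second it was 0.13 (edgeR adjusted p = 0.48). Nr1d1 (chr11:98767932-98775333, minus strand) shares 263 of its 3077 exonic bases with Thra, a thyroid hormone receptor gene on the other strand. How the counting treated strand is not given in the sources used here, so reads from the shared bases cannot be assigned to either gene. Thra stood at 261 and 260 CPM in control and 195 and 214 CPM in fructose, opposite in direction to Nr1d1, and was called lower (log2 fold change -0.35, SE 0.08, edgeR adjusted p = 0.011).

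**Figure D2:**
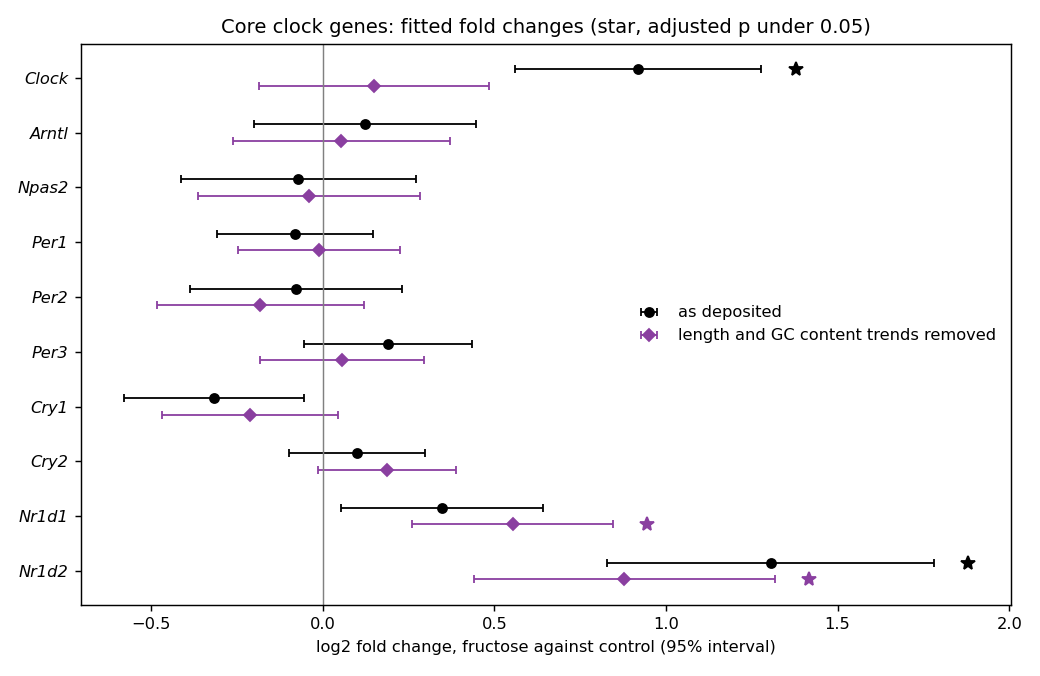
Log2 fold change (fructose against control) of each of the 10 genes with its 95% confidence interval from edgeR, on the counts as deposited (black circles) and after removal of both trends, in length and in GC (purple diamonds), with a star where the adjusted p was under 0.05. Clock has a star only as deposited (0.92 and 0.15), Nr1d1 only with the trends removed (0.35 and 0.55) and Nr1d2 in both (1.305 and 0.88).

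In the counts as deposited, the activators and the repressors did not form 2 groups moving in opposite directions, as both held rises and falls. The median log2 fold change was 0.12 over the 3 activators, -0.08 over the 5 PER and CRY genes and 0.83 over the 2 REV-ERB genes. Of the activators 1 of 3 (Clock) and of the REV-ERB genes 1 of 2 (Nr1d2) were called higher by edgeR, beside 15.5% of all genes. Of the PER and CRY genes 0 of 5 were called by edgeR, beside 26.2% of all genes. DESeq2 called 0 of 5 too, with 1279 higher and 1086 lower among the 16360 genes in its fit. Cry1 had an unadjusted p of 0.022 in edgeR's quasi-likelihood test. Sets of 2 to 5 genes are too small to set such counts apart from these shares. Clock and Nr1d2, which belong to opposite limbs, were thus both higher in fructose as deposited, while Arntl and Npas2 had intervals that span 0. Clock cycles weakly in adult tissues, and its log2 fold change was 0.15 with the length and GC trends removed (edgeR adjusted p = 0.61). In that fit, described below, Arntl was at 0.05 and Npas2 at -0.04. Nr1d1 was then at 0.55, Nr1d2 at 0.88, Per3 at 0.06 and Dbp at -0.19. A difference in collection time was not tested.

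Differences between genes within a library do not depend on the scaling of that library, but they do depend on length and GC content, which these counts as deposited leave in. Arntl minus Nr1d1, on the log2 CPM scale, was -1.34 and -0.85 in control, against -1.20 and -1.48 in fructose, so the groups overlapped. Arntl minus Per2 was -0.30 and -0.31 in control, against 0.19 and -0.40 in fructose, where the fructose libraries lay on either side of the controls. Arntl minus Dbp was -0.20 and -0.13 in control, against 0.68 and 0.25 in fructose, and here both fructose libraries were above both controls. Clock minus Nr1d2, a pair from opposite limbs, was 0.55 and 0.78 in control, against 0.43 and 0.17 in fructose, and both fructose libraries were below both controls. Clock minus Npas2, a pair of close relatives, was -0.45 and -0.63 in control, against 0.36 and 0.51 in fructose, turning from below to above 0. Nr1d2 minus Nr1d1 was -2.82 and -2.57 in control, against -2.08 and -1.52 in fructose, so that Nr1d2 stood closer to Nr1d1 in both fructose libraries. With the length and GC trends removed from every library, as described below, the fitted log2 fold changes were 0.15 for Clock against -0.04 for Npas2, and 0.88 for Nr1d2 against 0.55 for Nr1d1, so both pairs differed less. Arntl and Nr1d1 then differed more, at 0.05 against 0.55, as did Clock and Nr1d2, at 0.15 against 0.88. Arntl and Dbp differed less, at 0.05 against -0.19, and Arntl and Per2 about as much as before, at 0.05 against -0.18. With 2 libraries against 2, an exact permutation test (two-sided) cannot go below p = 0.333, and none was run on these differences.

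Across 12884 tested genes with a known transcript length and GC content, the log2 fold change rose with length (Spearman's rho 0.501) and fell with GC content (rho -0.501), a description across genes, which are not independent replicates. Clock and Nr1d2 are the members with the lowest GC content (40.9% and 41.8%), and Clock has the longest transcript (9744 bases) of the 10. When the length trend was removed from every library the log2 fold change of Clock was 0.43, with the GC trend removed it was 0.46, and with both removed it was 0.15 (95% confidence interval -0.19 to 0.48, edgeR adjusted p = 0.61). Clock was not called in any fit with either trend removed. Nr1d2 kept a log2 fold change of 0.88 with both trends removed (95% confidence interval 0.44 to 1.32, edgeR adjusted p = 0.023). Nr1d1, a short transcript of 2721 bases with 56.8% GC, had a log2 fold change of 0.55 with both trends removed (edgeR adjusted p = 0.028), past the threshold it missed before. That left 2 of 10 members called, Nr1d1 and Nr1d2, both higher, beside 8.12% of all genes (3.91% higher and 4.21% lower). With both trends removed Thra had a log2 fold change of -0.08 (edgeR adjusted p = 0.61), and the values of Arntl (0.05), Npas2 (-0.04) and Per1 (-0.01) were close to 0.

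**Figure D3:**
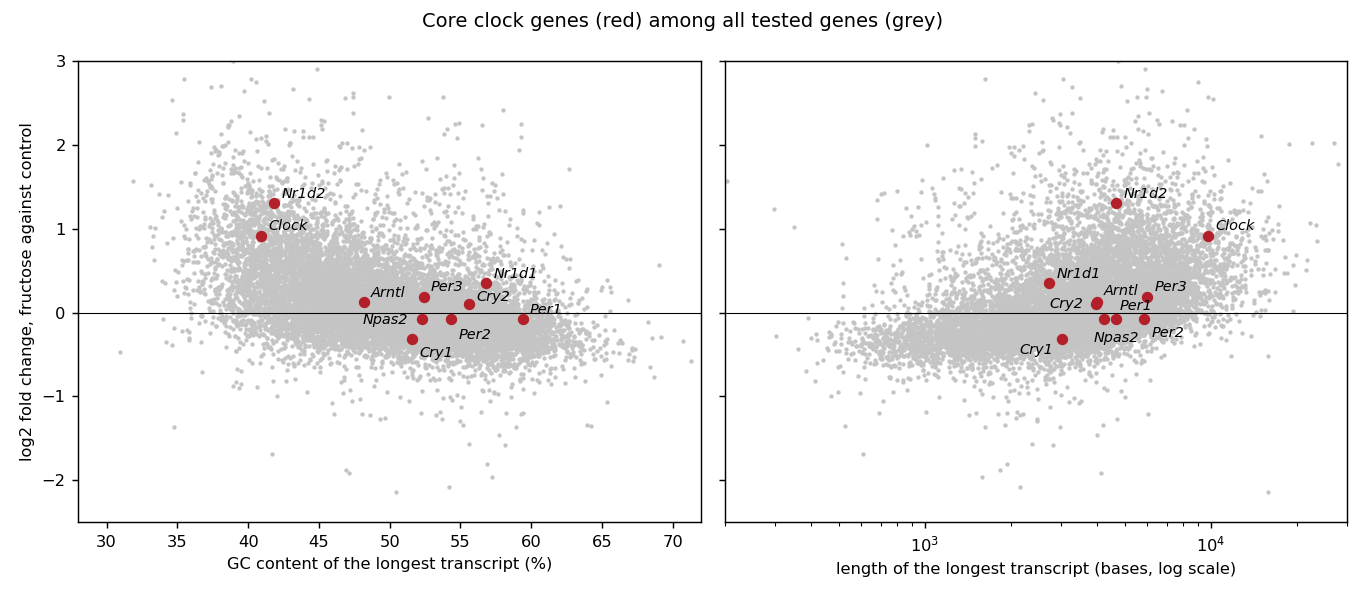
Log2 fold change (fructose against control) of all tested genes (grey) against the GC content in percent (left) and the length in bases on a log axis (right) of the longest transcript, with the 10 clock genes in red. Of 12884 genes, 14 lie outside the vertical range, 1 outside the GC range and 3 outside the length range. Clock sits at the long, low-GC end, where the grey cloud also reaches higher.

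The other clock genes were taken from a list of 31 that holds ROR receptors, the D-box factors, further E-box repressors and outputs, and the kinases, ubiquitin ligases and cofactors that modify clock proteins. Of these 29 were tested, Rorb and Fbxl21 having too few counts. In edgeR 9 of 29 (31%) were called, 7 higher and 2 lower, beside 26.2% of all genes. With both trends removed 2 of 29 (6.9%) were called, Sirt1 and Btrc, beside 8.12% of all genes.

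Rora, an activator of Arntl, had 12 and 9 counts in control, against 30 and 44 in fructose, that is 0.633 and 0.499 CPM against 1.33 and 1.80 CPM. Fructose was higher in both libraries, with a log2 fold change of 1.45 (SE 0.42, edgeR adjusted p = 0.024) that was not called by DESeq2 (adjusted p = 0.13), nor in edgeR with both trends removed (0.65, adjusted p = 0.37). Leaving out the second control library (1.299), the first fructose library (1.66) or the second fructose library (1.22) also ended the call of Rora.

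Dbp, a D-box activator and a direct output of CLOCK and BMAL1, stood at 14.4 and 13.9 CPM in control and 9.42 and 10.4 CPM in fructose. Both fructose libraries were below both controls, with a log2 fold change of -0.51 (SE 0.14, edgeR adjusted p = 0.021), not called by DESeq2 (adjusted p = 0.060). Dbp is a short transcript of 1837 bases with 61.6% GC, and with both trends removed its log2 fold change was -0.19 (edgeR adjusted p = 0.45). Without the first fructose library it was -0.44 (edgeR adjusted p = 0.13), and without the second it was -0.58 (edgeR adjusted p = 0.052). Its relatives Tef (log2 fold change -0.08, edgeR adjusted p = 0.65) and Hlf (0.13, adjusted p = 0.66), and the D-box repressor Nfil3 (-0.21, adjusted p = 0.105), were not called. Dbp and Nr1d1, which in adult tissues are both activated through E-boxes and peak at similar times of day, thus had log2 fold changes of opposite sign (-0.51 and 0.35).

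Bhlhe40, an E-box repressor, stood at 156 and 112 CPM in control and 160 and 171 CPM in fructose. The first control library was close to the fructose libraries, with a log2 fold change of 0.31 (SE 0.13, edgeR adjusted p = 0.094). Without the first control library it was 0.56 (edgeR adjusted p = 1.1e-06), and without the second it was 0.087 (edgeR adjusted p = 0.56). Bhlhe41 (0.12, edgeR adjusted p = 0.70) and Ciart (0.59, edgeR adjusted p = 0.50, with 4 to 14 counts per library) were not called. Nampt, the rate-limiting enzyme of NAD+ salvage and an E-box output, stood at 160 and 155 CPM in control and 221 and 227 CPM in fructose. It rose by 0.51 on the log2 scale (SE 0.08, edgeR adjusted p = 0.0013), but its log2 fold change with both trends removed was 0.012.

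Among the modifiers, Sirt1, an NAD+-dependent deacetylase, stood at 3.01 and 1.996 CPM in control and 5.88 and 6.04 CPM in fructose. It was higher in both fructose libraries (log2 fold change 1.25, SE 0.25, edgeR adjusted p = 0.0044) and was still called with both trends removed (0.99, adjusted p = 0.026). Prkaa1 and Prkaa2, the catalytic subunits of AMP-activated kinase, which phosphorylates CRY1, rose by 0.44 (edgeR adjusted p = 0.012) and by 1.09 (edgeR adjusted p = 0.0010) on the log2 scale. Gsk3b, a kinase of REV-ERBα and PER2, rose by 0.61 (edgeR adjusted p = 0.00096), and the cofactor Thrap3 rose by 0.33 (edgeR adjusted p = 0.022). The orphan receptor Nr2f6 fell by 0.53 (edgeR adjusted p = 0.0020). With both trends removed none of these last 5 genes was called, but Thrap3 kept most of its log2 fold change (0.29, edgeR adjusted p = 0.066), whereas Prkaa2 (0.37), Nr2f6 (-0.21), Gsk3b (0.17) and Prkaa1 (-0.079) moved closer to 0. Btrc, the ligase subunit for PER proteins, was not called before and had a log2 fold change of -0.53 with both trends removed (edgeR adjusted p = 0.029). Single libraries ended the calls of Prkaa1 (0.41 without the first fructose library) and Thrap3 (0.24 without the first control library and 0.25 without the second fructose library).

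**Figure D4:**
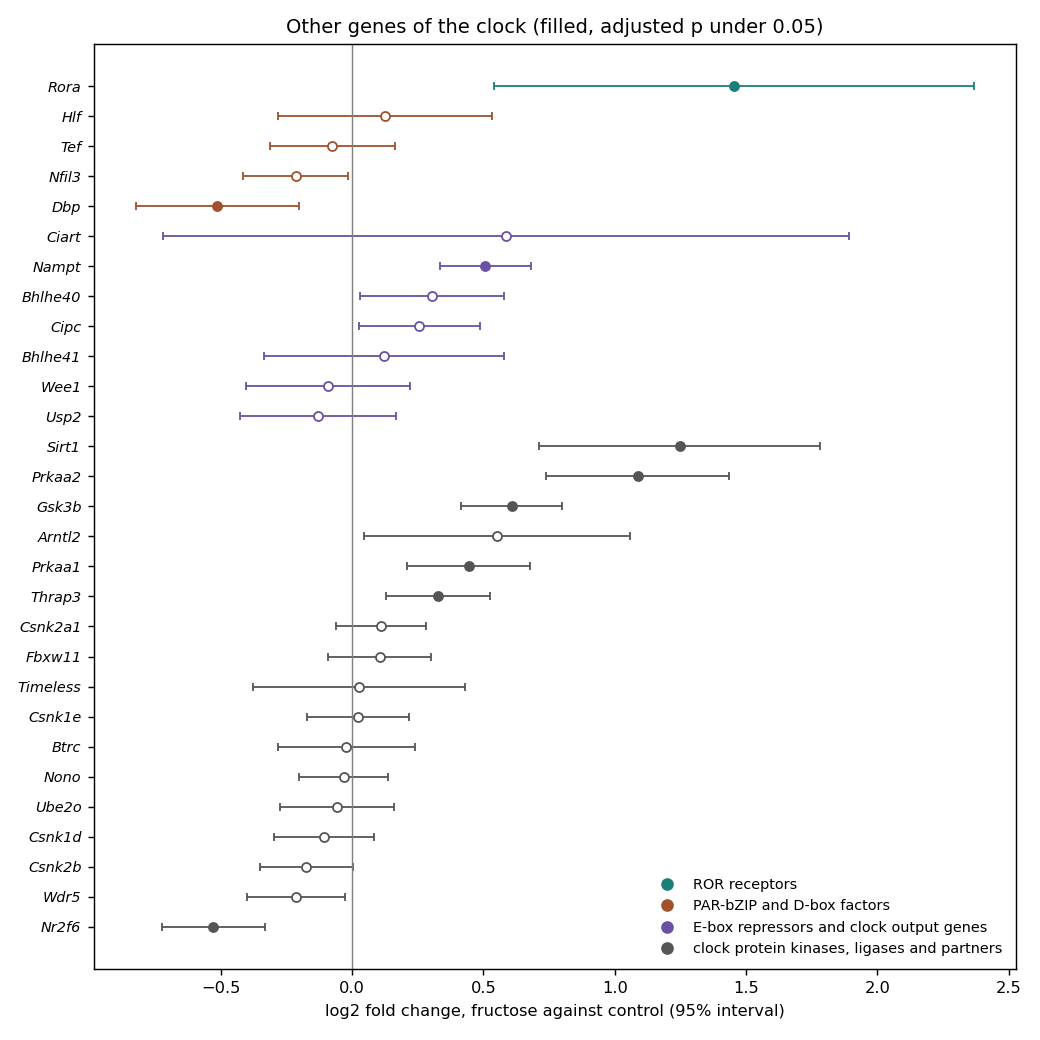
Log2 fold change (fructose against control) with its 95% confidence interval from edgeR for the 29 tested genes of the wider clock list, coloured by role, with filled points for an adjusted p under 0.05. The 7 filled points above 0 run from Thrap3 (0.33) to Rora (1.45), and the 2 below 0 are Dbp (-0.51) and Nr2f6 (-0.53).

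The genes whose pattern over the 4 libraries was nearest to that of Arntl, by the Euclidean distance of centred log2 CPM, were Nckap1l (0.0223), Cplx2 (0.0251) and Mcm6 (0.0267). Those nearest to Nr1d1 were Cd109 (0.0231), Cd274 (0.0303) and Rbm18 (0.0368). None of these 6 is a gene of the clock lists, and with 4 libraries such likeness is a description.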

How the data were processed

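RNA-seq libraries of fetal BAT (2 control, 2 fructose) were analysed from the deposited counts, which the authors made with fastp, Bowtie2 2.0.0.5, TopHat2 2.0.0 and StringTie 2.2.0 on mm10, per the submitters' processing notes. The counting tool, its treatment of strand and multiply mapped reads, and the annotation release are not given in the sources used here. Of 22298 genes, 22255 matched GENCODE M21 (GRCm38), which gave symbols, coordinates, length and GC content. Genes kept by filterByExpr (12888) were tested with the quasi-likelihood test of edgeR 4.0.16 (R 4.3.3), two-sided, with TMM scaling and Benjamini-Hochberg adjustment over all of them. A gene with 0 counts could have a level of up to 0.122 to 0.166 CPM (3 counts, counting error only). Alternatives were DESeq2 1.42.0, other scaling and filters, a replicate block, removal of the length and GC trends (lowess, span 0.3, as offsets) and leaving out each library. The genes, lists and alternatives were chosen with earlier results of these data known. The genes named are the 10 members, the called genes of the other clock lists (some genes are not reported here), 8 outputs and receptors whether called or not, Thra and the nearest patterns. Btrc and the genes of the glucocorticoid and immediate early lists were named after their values were seen. The tests were checked on simulated counts.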

Additional observations from a re-analysis of the deposited data

How the results depend on the processing

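Of all genes, edgeR called 2001 higher and 1379 lower. The count called higher was 1279 with DESeq2, 1154 with the length trend removed, 1091 with the GC trend removed and 504 with both removed. With scaling by library size alone 859 genes were called lower, and after removal of both trends 543. The share of higher calls was 59.2%, against 72.3% with library size only, 49.1% with the GC trend removed and 48.1% with both removed. Calls in the list of other clock genes fell from 9 of 29 (31%) to 4 (13.8%) with the length trend removed, 5 (17.2%) with the GC trend and 2 (6.9%) with both. Calls over all 12888 genes fell as well. They were 1154 higher and 1008 lower with the length trend removed, and 1091 higher and 1132 lower with the GC trend removed. With both removed they were 504 higher and 543 lower. Log2 fold changes of Clock lost their call at 0.43 (length), 0.46 (GC) and 0.15 (both), whereas Nr1d1 passed at 0.35 with no filter on low counts, 0.41 (length), 0.51 (GC) and 0.55 (both). The median over PER and CRY genes was 0.12 with the GC trend removed. Signs turned for Per3 (-0.079, length), Per1 (0.12, GC), Per2 (0.035, GC), Tef (0.011, GC), Hlf (-0.12, length; -0.082, GC; -0.21, both), Bhlhe41 (-0.16 with length, -0.16 with both), Nfil3 (0.0064, both) and Prkaa1 (-0.066, GC; -0.079, both). The cause of the trends was not tested.

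The replicate numbers did not pair the libraries (correlation of deviations -0.0266). With the replicate block 4 of 10 core clock genes were called, Cry1 (-0.32) and Nr1d1 (0.36) besides Clock and Nr1d2. Bhlhe40 (0.32, edgeR adjusted p = 0.019) was called too. Of all 12888 genes in that fit, 2117 were called higher and 1441 lower. As the numbers did not pair the libraries, the added calls rest on a block without a known basis in the design. With the block and both trends removed 695 genes were called higher and 628 lower, 3 other clock genes were called, and the log2 fold changes were 0.14 for Clock, 0.57 for Nr1d1, -0.19 for Hlf, 0.0068 for Nfil3, -0.14 for Bhlhe41 and -0.077 for Prkaa1.

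Leaving out 1 library leaves a lone library assumed to vary like the other group. Over these fits 1207 to 2225 genes were called higher and 485 to 1700 lower, and 2 to 4 core (by either threshold) and 6 to 11 other clock genes were called. Medians ranged from -0.0032 to 0.27 for the activators, from -0.16 to 0.071 for PER and CRY and from 0.66 to 1.01 for REV-ERB genes. Log2 fold changes ranged from 0.77 to 1.06 for Clock, 1.004 to 1.56 for Nr1d2, -0.026 to 0.27 for Arntl, -0.16 to 0.020 for Npas2, -0.22 to 0.071 for Per1, -0.24 to 0.068 for Per2, 0.065 to 0.31 for Per3, -0.44 to -0.20 for Cry1, 0.034 to 0.17 for Cry2, 0.13 to 0.60 for Nr1d1, -0.24 to 0.11 for Tef, -0.16 to 0.47 for Hlf and -0.18 to 0.49 for Bhlhe41. Tef was called without the first control library (-0.24) and Hlf without the second (0.47).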

Other observations

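Glucocorticoid hormones reset peripheral clocks and rise in the fetus before birth, so a list of 9 response genes was described beside the clock genes. In edgeR 4 of 9 were called higher in fructose, beside 15.5% of all genes, and 1 of 9 lower, beside 10.7%. With both trends removed 2 of 9 were called higher, beside 3.91% of all genes, and 1 of 9 lower, beside 4.21%. Klf9, a transcription factor that is also a clock output, stood at 13.9 and 17.2 CPM in control and 30.2 and 34.5 CPM in fructose. Both fructose libraries were far above the controls, with a log2 fold change of 1.06 (SE 0.13, edgeR adjusted p = 0.00039) that was 0.92 with both trends removed (adjusted p = 0.0021). Pdk4, which restrains glucose oxidation, rose by 0.53 on the log2 scale (edgeR adjusted p = 0.0025), and by 0.38 with both trends removed (adjusted p = 0.024). Zbtb16 (0.59, edgeR adjusted p = 0.022) and the receptor gene Nr3c1 (0.76, edgeR adjusted p = 0.0041) were called higher, and Cdkn1a (-0.42, edgeR adjusted p = 0.0059) lower, but these 3 were not called with both trends removed. Zbtb16 then still had a log2 fold change of 0.53 (edgeR adjusted p = 0.074), whereas Nr3c1 was at 0.23 and Cdkn1a at -0.20. Hif3a, not called before (-0.15, edgeR adjusted p = 0.24), was called lower with both trends removed (-0.32, edgeR adjusted p = 0.049). Tsc22d3 (-0.0073), Fkbp5 (-0.07) and Sgk1 (-0.11), other classical targets of the receptor, were not called.

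Of 11 immediate early genes, which respond within minutes to handling or stress, 9 were tested, Fosb and Egr2 having too few counts. In edgeR 0 of 9 were called, beside 26.2% of all genes, and 2 of 9 had an unadjusted p under 0.05. DESeq2 called 0 of 9 as well. Summed, the 11 genes were at 245 and 178 CPM in control and 192 and 210 CPM in fructose. The first control library was the highest of the 4 for Jun (54.6 CPM, against 23.7 CPM in the second control library), Dusp1 (74.6 and 46.4 CPM) and Nr4a1 (13.4 and 6.60 CPM), and also for Fos and Atf3, that is for 5 of the 9. It was the lowest of the 4 for Egr1 (12.1 CPM, against 19.1 CPM in the second control library), and below the second control library for Junb (17.6 and 19.2 CPM) and Ier2 (33.0 and 34.9 CPM). The same library had the higher control value of Per1, Cry2, Nr1d1, Nr1d2 and Bhlhe40, while Clock was alike in both control libraries. It had the lower control value of Arntl, Npas2, Per2, Per3, Cry1, Tef, Hlf and Bhlhe41. The differences of Nr1d1 and Bhlhe40 between groups depended on which control library was kept, as given above. Whether the pattern of this library has a part in those values was not tested.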
